A study of Mus musculus with 8 samples.

Results

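The genes described here are 36 genes of fat cells and of fat synthesis, of the 21597 gene symbols on the arrays. They were found by their symbols, older and newer ones included, and *Me1* carries its older symbol *Mod1* in the files. They were split into 16 fat-cell genes, which are typical of adipocytes though other cells make some of them, and 20 lipogenic genes, which handle fatty acids and triglyceride in fat cells and in other cells. All 36 had at least 1 probe, with 62 probes in total. Each was measured in the pancreas of 8 female NOD mice (NOD/LtJ), a strain that develops autoimmune diabetes, at 12 weeks of age. Each NOD mouse was on its own two-color array, in red (Cy5), against a single pool of pancreas RNA from 8 mice of the same age, in green (Cy3), of the strain NOD.B10 (NOD.B10Sn-H2b/J), which has the NOD background with another MHC haplotype and does not become diabetic. NOD was red throughout, with no dye swap, so strain and dye cannot be told apart for any gene, and the pool has no replicate animals of its own. Mice 1 to 4 were on slide 1 and mice 5 to 8 on slide 2.

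Adipocytes lie between the lobules of the pancreas and in the fat around it. A fat cell takes up fatty acids that lipoprotein lipase releases from circulating lipoproteins, makes others from citrate by way of ATP citrate lyase, acetyl-CoA carboxylase and fatty acid synthase, joins them to glycerol as triglyceride, and stores this in a droplet coated by perilipin. *Pparg* and *Cebpa* encode the transcription factors that drive adipocyte differentiation, and SREBP-1, from *Srebf1*, drives the enzymes of fatty acid synthesis in many cell types.

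No gene of either group was called different between NOD and the pool. The log2 ratios of several fat-cell genes spread widely over the 8 NOD mice, largely through mouse 4. There most of their red signals were not well above background. The test was limma's one-sample moderated test of the log2 ratio, positive where NOD is higher, with Benjamini-Hochberg adjustment over 28105 probes that had a symbol and, on 4 or more arrays, a red processed signal of 25 or higher. A call needs a 2-fold change and an adjusted p below 0.01. By the brightest tested probe of each gene, 0 of 35 tested members were called, where 1.68% of all 18505 genes tested were called, 1.29% lower and 0.389% higher. *Adrb3*, the beta-3 adrenergic receptor of fat cells, did not pass the signal filter. At an unadjusted p under 0.05, 14 of the 35 passed with no limit on fold, where 35.8% of all genes did. At an adjusted p below 0.05 with no limit on fold, 6 of 35 (17.1%) were lower and 0 higher, where 14.3% of all genes were lower and 6.97% higher. The median of the mean log2 ratios was -0.59 over the 15 tested fat-cell genes and -0.22 over the 20 lipogenic genes, against -0.08 over all genes tested. With normexp background correction and loess scaling the medians were -0.058 and -0.070, so the gap between the groups depends on the scaling. In the pool, 12 of the 16 fat-cell genes and 19 of the 20 lipogenic genes were well above background on all 8 arrays, and in NOD 4 and 9 were, so transcripts of fat cells were present in the pool. Of all spots on an array, 57.6% to 60.7% were well above background in green and 21.6% to 35.3% in red. Fewer spots thus passed in red over the whole array, and the lower counts in NOD are not particular to these genes. In whole tissue, fewer cells of a type and less RNA per cell cannot be told apart.

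**Figure D1:**
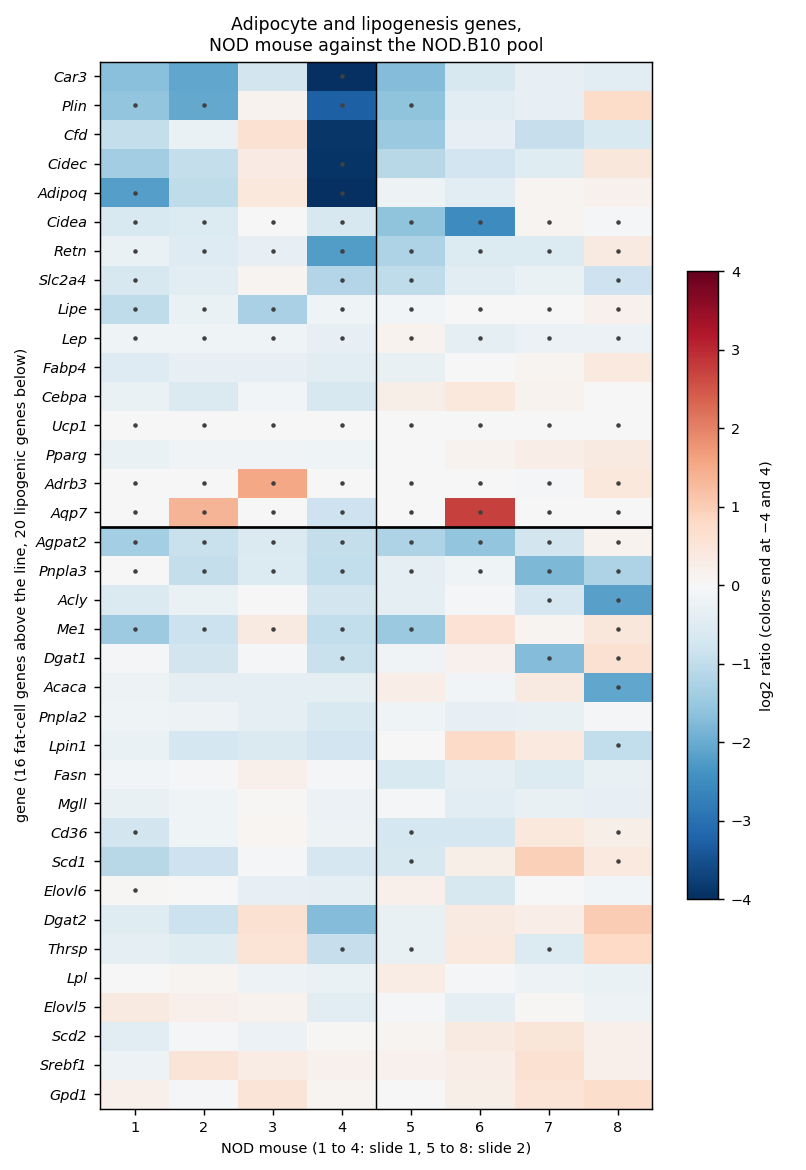
Log2 ratio of each gene (rows, brightest probe) in each NOD mouse (columns) against the NOD.B10 pool, blue where NOD is lower and red where it is higher, with a dot where the red signal was not well above background. *Car3*, *Cfd*, *Cidec*, *Adipoq* and *Plin* are darkest in mouse 4, while *Pparg*, *Lpl*, *Fasn* and *Srebf1* stay pale in all 8 mice.

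*Adipoq* encodes adiponectin, a hormone secreted by fat cells. Its log2 ratio was lowest in mouse 4 at -4.18 and in mouse 1 at -2.19, had a median of -0.31, and was highest in mouse 3 at 0.43. Red signal was not well above background in mice 4 and 1, so the 2 lowest ratios follow the background as well as the RNA. The mean was -0.91 ± 1.56 (SD, n = 8), with a limma 95% interval from -2.13 to 0.31 (adjusted p = 0.27).

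*Cfd* encodes adipsin, the complement factor D made by fat cells, and had the brightest probe among the genes with a wide range, with a median processed signal of 4849 in the pool. Its log2 ratio was -3.89 in mouse 4, mouse 5 was the next lowest, the median was -0.77 and the highest was 0.60 in mouse 3. Only mouse 3 was above the pool. The mean was -0.98 ± 1.33 (SD, n = 8, adjusted p = 0.167).

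Of the 3 droplet proteins, 2 were also lowest in mouse 4. *Cidec* encodes a protein that fuses lipid droplets in white fat, and its log2 ratio went from -3.91 in mouse 4 over a median of -0.86 to 0.46 in mouse 8 (mean -0.98 ± 1.36, SD, n = 8, adjusted p = 0.178). *Plin* encodes perilipin, and went from -3.27 in mouse 4 over a median of -0.99 to 0.74 in mouse 8 (mean -1.04 ± 1.31, SD, n = 8, adjusted p = 0.141). The red signal of *Plin* was not well above background in mice 1, 2, 4 and 5, which hold its 4 lowest ratios, so its median, its mean and its relation to *Adipoq* rest in part on spots near background. Mice 3 and 8 were above the pool for both genes and the other 6 mice below it. *Cidea*, a related droplet protein typical of brown fat, was weak: red signal cleared background well on 0 arrays, and its mean was -0.73 ± 0.90 (SD, n = 8, adjusted p = 0.133), with mouse 6 lowest at -2.50.

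*Car3*, carbonic anhydrase 3, an abundant cytosolic protein of fat cells that skeletal muscle and liver also make, had the lowest mean of the 36 genes. It was below the pool in 8 of 8 mice, from -4.87 in mouse 4 over a median of -1.20 to -0.31 in mouse 7. The mean was -1.55 ± 1.498 (SD, n = 8), with a limma adjusted p of 0.0677 and an exact sign-flip p of 0.00781 (two-sided), the smallest that 8 mice allow. A second, weaker probe, with red signal well above background on 0 arrays, gave -1.06. It was lowest in mouse 4 at -2.29, with mouse 2 close at -2.21, and above the pool in mouse 3 at 0.27.

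The pool RNA was the same on all 8 arrays and the red RNA came from a different mouse on each. Over *Adipoq*, *Plin*, *Cfd*, *Cidec* and *Car3*, picked out after their values were seen, the SD of the log2 green signal was 0.17 to 0.23 and that of the red signal 1.24 to 1.55. The green SD does not measure the error of the red spots, so differences between mice and error in red cannot be told apart from these SDs. In mouse 4 the red signal of *Adipoq* was 31.2, of *Plin* 33.1, of *Car3* 54.1 and of *Cidec* 61.7, none of them well above background, so that these ratios follow the background as well as the RNA. The red signal of *Cfd* in mouse 4 was 330 and was well above background. Mouse 4 was lowest for all 5 genes. Without mouse 4 the mean log2 ratios of the 5 genes were -1.08 to -0.45, with adjusted p from 0.0401 to 0.412.

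**Figure D2:**
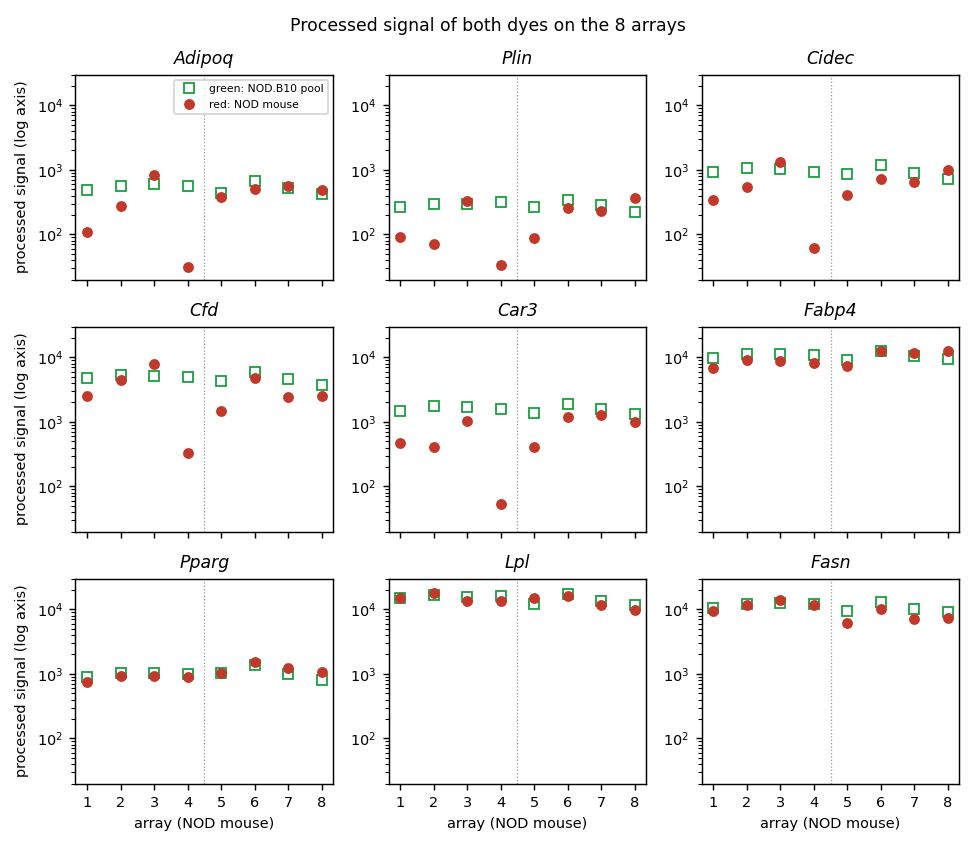
Processed signal (log axis) on the 8 arrays (horizontal axis) for 9 genes, with open green squares for the pool and red circles for the NOD mouse, and a dotted line between the slides. The squares stay level in every panel, while the circles of *Adipoq*, *Plin*, *Cidec*, *Cfd* and *Car3* lie far below them in mouse 4, where *Cfd* is at 330, and those of *Fabp4*, *Pparg* and *Lpl* stay close to the squares.

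Of the 9559 genes whose red signal was well above background on 4 or more arrays, 0.167% had a larger SD between mice than *Adipoq*, and 0.209% a larger one than *Car3*. For *Cidec*, *Cfd* and *Plin* this share was 0.293%, 0.324% and 0.356%. The median SD over these 9559 genes was 0.30. These ranks rest largely on mouse 4, whose red signal was near background for 4 of the 5 genes. Without it, a comparison added after seeing the data, the SD was 0.91 for *Adipoq* (2.98% of genes had a larger one), 1.03 for *Plin* (1.34%), 0.72 for *Car3* (7.70%), 0.71 for *Cidec* (7.87%) and 0.67 for *Cfd* (9.75%). The other fat-cell genes in this set had SDs near the middle: 27.6% of genes had a larger one than *Slc2a4*, 34.2% than *Cebpa*, 47.0% than *Fabp4* and 67.9% than *Pparg*.

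**Figure D3:**
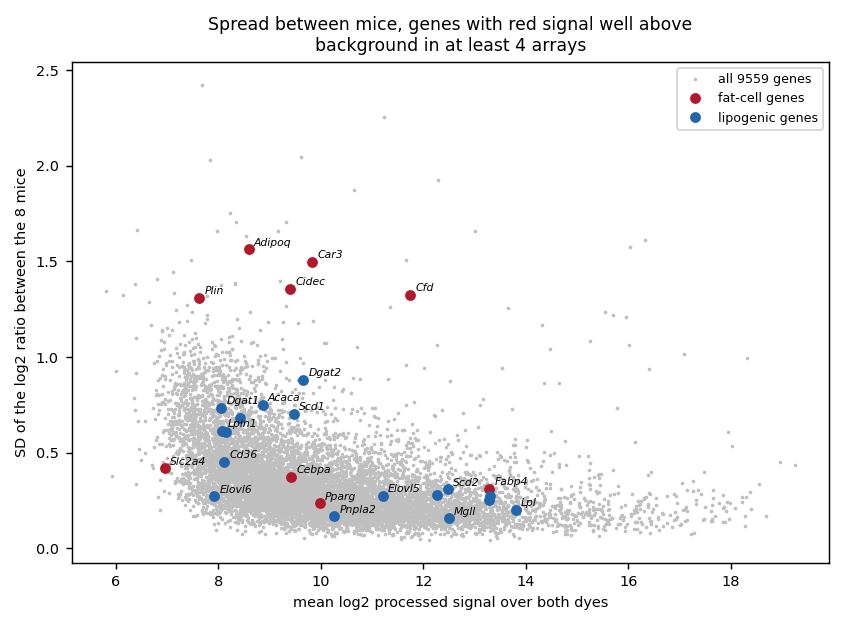
SD of the log2 ratio between the 8 mice (vertical axis) against the mean log2 processed signal over both dyes (horizontal axis) for 9559 genes in grey, with fat-cell genes in red and lipogenic genes in blue. *Adipoq* at 1.56, *Car3*, *Cidec*, *Cfd* and *Plin* lie far above the bulk of genes of like signal with mouse 4 included, and *Dgat2* at 0.88 is the highest lipogenic gene plotted.

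Promoters of 4 genes that were low together in mouse 4 and of *Fasn*, which was not, are shown to set beside their values. A promoter for 25 of the 36 genes was in the RefSeq table (GRCm38.p6). Each line holds the 200 bases before a transcription start, 5′ to 3′ on the gene's strand, with matches in capitals.
Adipoq: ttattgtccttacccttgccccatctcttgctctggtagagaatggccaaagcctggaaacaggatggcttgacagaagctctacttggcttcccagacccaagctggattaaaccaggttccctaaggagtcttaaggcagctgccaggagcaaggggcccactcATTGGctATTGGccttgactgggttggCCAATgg
Plin1 (*Plin* in the files): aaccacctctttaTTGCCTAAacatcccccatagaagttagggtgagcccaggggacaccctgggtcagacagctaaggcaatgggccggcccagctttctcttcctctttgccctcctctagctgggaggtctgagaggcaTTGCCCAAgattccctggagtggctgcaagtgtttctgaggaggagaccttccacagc
Cidec: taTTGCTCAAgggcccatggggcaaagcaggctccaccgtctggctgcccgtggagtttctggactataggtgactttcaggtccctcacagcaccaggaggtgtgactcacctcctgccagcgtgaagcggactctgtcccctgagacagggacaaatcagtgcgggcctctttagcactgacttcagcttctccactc
Cfd: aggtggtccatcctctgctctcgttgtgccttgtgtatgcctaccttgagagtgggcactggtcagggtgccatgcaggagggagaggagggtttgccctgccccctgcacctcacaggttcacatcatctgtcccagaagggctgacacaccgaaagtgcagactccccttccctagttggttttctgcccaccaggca
Fasn: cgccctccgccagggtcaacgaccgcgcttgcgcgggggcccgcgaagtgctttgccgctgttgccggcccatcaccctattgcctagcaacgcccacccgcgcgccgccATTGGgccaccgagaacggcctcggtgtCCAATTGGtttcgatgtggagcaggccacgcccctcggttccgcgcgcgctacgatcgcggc
They lie at chr16:23146336-23146535 (+ strand), chr7:79732777-79732976 (- strand), chr6:113434765-113434964 (- strand), chr10:79890653-79890852 (+ strand) and chr11:120824548-120824747 (- strand). *Cidec* has 2 listed starts, and the other window had no match. The letters searched on both strands were TTGCNNAA, a form of the C/EBP site, CCAAT, the NF-Y site, TATAAA, and AGGTCA, the half-site of nuclear receptors such as PPAR gamma. TTGCNNAA matched at 187 and 58 bases before the *Plin1* start and at 198 bases before the *Cidec* start. CCAAT matched at 34, 27 and 7 bases before the *Adipoq* start, and at 90, 62 and 59 bases before the *Fasn* start, where the last 2 matches overlap on opposite strands. None of the 4 motifs matched in the *Cfd* window. Of all 32851 promoters, 7.47% hold TTGCNNAA, 29.3% CCAAT, 9.96% TATAAA and 11.4% AGGTCA in the same window, and of the 25 member genes 4, 8, 2 and 6 do.

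Other adipokines were faint. *Retn* encodes resistin and went from -2.24 in mouse 4 over a median of -0.52 to 0.35 in mouse 8 (mean -0.66 ± 0.77, SD, n = 8, adjusted p = 0.117). Resistin signal cleared background well in the pool on 8 arrays and in NOD on 0, and a second probe, also on 0, gave -1.05. *Lep*, the satiety hormone leptin, had a mean of -0.19 with red stand-in values, which the software sets from background noise, on all 8 arrays, so its adjusted p of 0.0467 compares background.

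The transcription factors lay near the pool. *Pparg* averaged 0.01 ± 0.23 on the log2 scale (SD, n = 8), from -0.27 in mouse 1 to 0.37 in mouse 8, with a limma 95% interval from -0.18 to 0.19. In mouse 4, where *Adipoq* was lowest, *Pparg* was at -0.18, and its red signal was well above background on all 8 arrays. *Cebpa* had a mean of -0.10 ± 0.37 (SD, n = 8, interval -0.39 to 0.20), with mouse 4 lowest at -0.63, and a weaker probe gave -0.40. *Srebf1* was higher than the pool in 7 of 8 mice and averaged 0.25 ± 0.25 (SD, n = 8, adjusted p = 0.0763). *Thrsp*, Spot 14, a nuclear protein tied to fat synthesis in liver and fat, ranged from -0.92 in mouse 4 to 0.79 in mouse 8, with a mean of -0.11 ± 0.61 (SD, n = 8).

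Genes of fatty acid uptake had some of the brightest probes. *Fabp4*, a fatty acid carrier of fat cells, macrophages and capillary endothelium, had a median processed signal of 10857 in the pool and a mean ratio of -0.17 ± 0.31 (log2) (SD, n = 8, interval -0.42 to 0.07). Its value in mouse 4 was -0.42, with mouse 1 lowest at -0.52. A second bright probe gave -0.09, and the weakest, well above background in red on 2 arrays, was lower in 8 of 8 mice at a mean of -1.07 (adjusted p = 0.0187). *Lpl*, lipoprotein lipase, had a pool signal of 15359 and a mean of -0.08 ± 0.20 (SD, n = 8, interval -0.24 to 0.08), with mouse 4 lowest at -0.27. *Cd36*, a fatty acid receptor of fat cells, macrophages and endothelium, had a mean of -0.22 ± 0.45 (SD, n = 8, adjusted p = 0.356). A second *Cd36* probe was below the pool in 8 of 8 mice, at a mean of -1.21 (adjusted p = 0.0153), with red signal well above background on 3 arrays. *Slc2a4*, the insulin-responsive glucose transporter of fat and muscle, was lower in 7 of 8 mice, at a mean of -0.59 ± 0.42 (SD, n = 8, adjusted p = 0.0255), under 2-fold, and mouse 4 was lowest at -1.17. Its red signal was not well above background in mice 1, 4, 5 and 8, which hold its lowest ratios, and with normexp its mean was -0.028. *Aqp7*, the glycerol channel of fat cells, was not well above background in red on any array, and its deposited ratio was 0 in 5 of 8 mice.

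Fatty acid synthesis showed no call. *Fasn*, fatty acid synthase, had a pool signal of 11157 and a mean of -0.23 ± 0.28 (SD, n = 8, adjusted p = 0.127), with -0.05 in mouse 4 and the lowest value, -0.62, in mouse 5. *Acly*, ATP citrate lyase, was below the pool in 8 of 8 mice, at a mean of -0.61 ± 0.68 (SD, n = 8, adjusted p = 0.105). *Acaca*, acetyl-CoA carboxylase, had a mean of -0.35 ± 0.75 (SD, n = 8, adjusted p = 0.376). Both were far lower in mouse 8 than elsewhere, *Acly* at -2.16 and *Acaca* at -2.07, with red signal not well above background there. Without mouse 8 the means were -0.39 for *Acly* and -0.11 for *Acaca*. For *Acaca* the pool signal was also low on that array, at 220, and at 149 on the array of mouse 7, against 698 to 817 on the other 6 arrays.

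The desaturases and elongases spread around the pool. *Scd1*, the main stearoyl-CoA desaturase of fat and liver, went from -1.10 in mouse 1 to 0.95 in mouse 7, with a mean of -0.22 ± 0.70 (SD, n = 8, adjusted p = 0.548). *Scd2*, a related desaturase made more widely, had a mean of 0.06 ± 0.31 (SD, n = 8, interval -0.18 to 0.31). *Elovl6*, which extends palmitate, had a mean of -0.15 ± 0.27 and *Elovl5*, which extends polyunsaturated fatty acids, of -0.04 ± 0.27 (SD, n = 8 each). *Me1*, malic enzyme, which supplies NADPH, had a mean of -0.42 ± 0.88 (SD, n = 8), with mouse 5 lowest and mouse 6 highest at 0.57.

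Of the genes of triglyceride synthesis, *Dgat2*, which adds the last fatty acid, had the widest spread between mice by its brightest probe. It was lowest in mouse 4 at -1.73, had a median of -0.01, and was highest in mouse 8 at 1.00 (mean -0.14 ± 0.88, SD, n = 8, adjusted p = 0.786). The probes disagreed on mouse 4. The next brightest, well above background in red on 7 arrays, was highest there at 0.31 and stayed near the pool in most mice, while the faintest, well above background on 3 arrays, was lowest there at -2.09. *Dgat1*, the second enzyme of that step, had a mean of -0.36 ± 0.73 (SD, n = 8, adjusted p = 0.358), and mouse 7 was lowest at -1.74. Red signal was not well above background in mouse 7, and without that mouse the mean was -0.16. The other *Dgat1* probe averaged -0.84 and was below the pool in 7 of 8 mice (adjusted p = 0.0244), with mouse 8 lowest. *Agpat2*, which makes phosphatidic acid, had a mean of -0.90 ± 0.54 (SD, n = 8), lower in 7 of 8 mice, with the lowest adjusted p of all members, 0.0139. By this probe no array had red signal well above background, and without mouse 8 it was called at -1.05 (adjusted p = 0.0048). A second *Agpat2* probe, well above background in red on 4 arrays, was lower in 8 of 8 mice at a mean of -0.79 (adjusted p = 0.0852). *Lpin1*, the phosphatidate phosphatase lipin 1, had a mean of -0.27 ± 0.61 (SD, n = 8, adjusted p = 0.403). Its 3 weaker probes, each well above background in red on 1 array, gave -0.90, -0.81 and -0.60, the first 2 of them lowest in mouse 4, at -2.27 and -1.92. *Gpd1*, glycerol-3-phosphate dehydrogenase, had the highest mean among the lipogenic genes, 0.28 ± 0.28 (SD, n = 8, adjusted p = 0.075), higher in 6 of 8 mice. Its second, weaker probe was lower in 8 of 8 mice, at -0.87.

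The lipases with bright probes had means just below the pool. *Pnpla2*, adipose triglyceride lipase, was below the pool in 8 of 8 mice, from -0.60 in mouse 4 to -0.06 in mouse 8, with a mean of -0.28 ± 0.17 (SD, n = 8, adjusted p = 0.015). Its second, weaker probe had a mean of -0.82 and was lower in 7 of 8 mice (adjusted p = 0.0342). *Mgll*, monoglyceride lipase, was lower in 7 of 8 mice, at a mean of -0.23 ± 0.16 (SD, n = 8, adjusted p = 0.026), but a second bright probe had a mean of 0.01. By each of these probes the mean change was under 2-fold. *Lipe*, hormone-sensitive lipase, had a mean of -0.34 ± 0.53 (SD, n = 8, adjusted p = 0.232) and *Pnpla3*, adiponutrin, of -0.75 ± 0.60 (SD, n = 8, adjusted p = 0.037), with red signal well above background on 0 arrays for each. *Ucp1*, the heat-making protein of brown fat, did not rise well above background on any array in red or green, and its deposited ratio was 0 in all 8 mice. The same held for the signals of *Adrb3*.

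**Figure D4:**
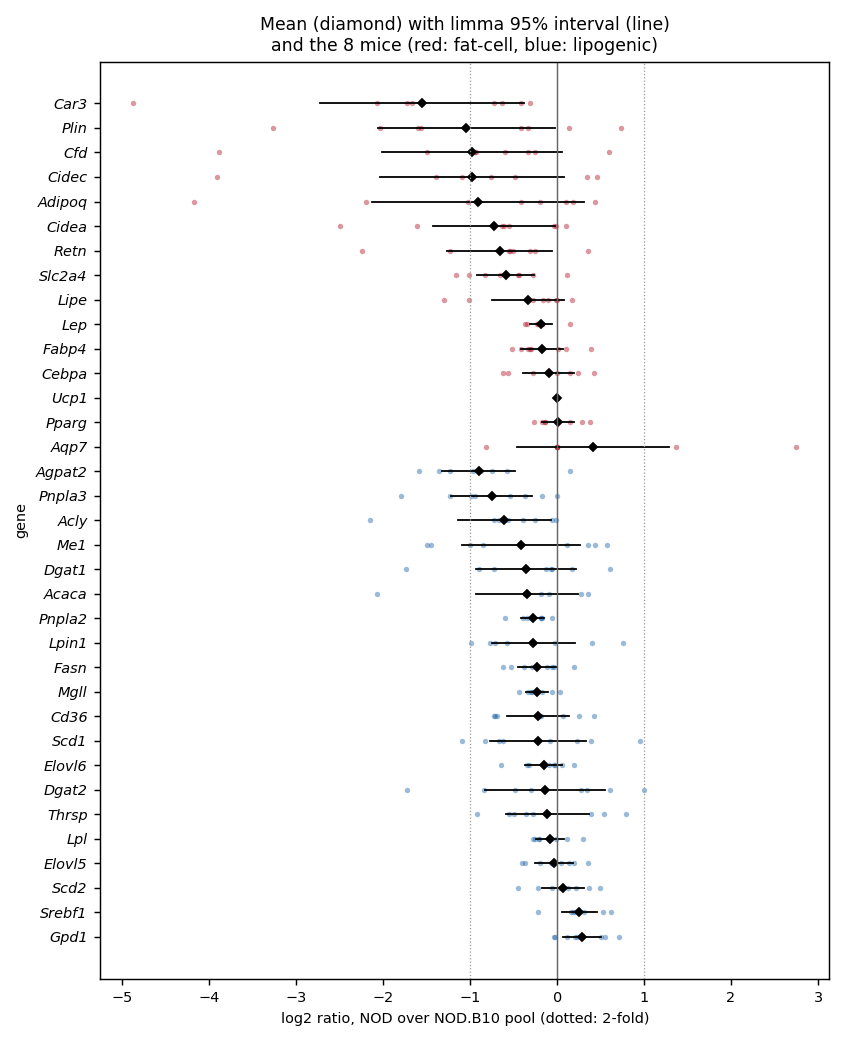
Log2 ratio of the 35 tested genes (rows) in the 8 mice (colored points, red for fat-cell and blue for lipogenic genes), with the mean (diamond) and its limma 95% interval (line), and dotted lines at a 2-fold change. The means of *Car3* (-1.55) and *Plin* (-1.04) lie past the dotted line with wide intervals, while the intervals of *Pparg*, *Lpl*, *Scd2* and *Elovl5* include 0 and stay well inside 2-fold.

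A pool averages RNA amounts and not their logarithms, so the linear mean over the 8 mice is its closer counterpart. On that scale the NOD mean was 74.3% of the pool for *Adipoq*, 66.6% for *Plin*, 65.9% for *Cfd*, 67.2% for *Cidec* and 46.1% for *Car3*, against 90.6% for *Fabp4*, 102% for *Pparg*, 95.6% for *Lpl*, 105% for *Dgat2* and 86.5% for *Fasn*.

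To see whether fat-cell genes moved together from mouse to mouse, the 8 other fat-cell genes with red signal well above background on 4 or more arrays were compared with *Adipoq*, with exact permutation p-values adjusted over these 8 relations. *Cidec* followed it most closely (Pearson's r = 0.94, p = 0.000422, adjusted p = 0.00337, Spearman's rho = 0.90, p = 0.00456, adjusted p = 0.0365, exact permutation). For *Car3*, r was 0.92 (exact permutation p = 0.00712, adjusted p = 0.019) and rho 0.69 (p = 0.0694, adjusted p = 0.185), and with median-centered signals r missed the threshold (adjusted p = 0.0524). For *Plin*, r was 0.85 (exact permutation p = 0.00377, adjusted p = 0.0151) and rho 0.86 (p = 0.0107, adjusted p = 0.0429). The relation missed the threshold for *Cfd* (r = 0.82, exact permutation p = 0.0315, adjusted p = 0.0631, rho = 0.55, p = 0.171), *Cebpa* (r = 0.70, p = 0.0496, adjusted p = 0.0793, rho = 0.50, p = 0.216), *Slc2a4* (r = 0.60, p = 0.123, rho = 0.55, p = 0.171), *Pparg* (r = 0.59, p = 0.111, rho = 0.60, p = 0.132) and *Fabp4* (r = 0.57, p = 0.132, rho = 0.60, p = 0.132), with adjusted p of 0.132 for r of the last 3.

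Mice 1 and 4 are farthest from the *Adipoq* median. Without them r was 0.81 for *Plin*, 0.76 for *Cidec* and 0.74 for *Car3*, with an adjusted p of 0.259 each (exact permutation, n = 6), so that no relation passed with the 6 mice left. For *Cfd* r dropped to 0.16 (adjusted p = 0.767, exact permutation, n = 6), and this relation rests on mice 1 and 4. As deviations from the slide means, r was 0.95 for *Cidec*, 0.92 for *Cfd*, 0.88 for *Car3*, 0.82 for *Slc2a4* and 0.79 for *Plin*, with adjusted p from 0.0184 to 0.0345 (permutation over all 8 mice), and 0.25 for *Fabp4* and 0.24 for *Pparg*. By rank none of these passed, with adjusted p of rho from 0.174 to 0.225 for the first 5 genes (permutation over all 8 mice). These permutations moved mice across the slides, which deviations from slide means do not strictly allow, so the p-values for the deviations are approximate. No correlation was computed within a single slide, which holds 4 mice.

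**Figure D5:**
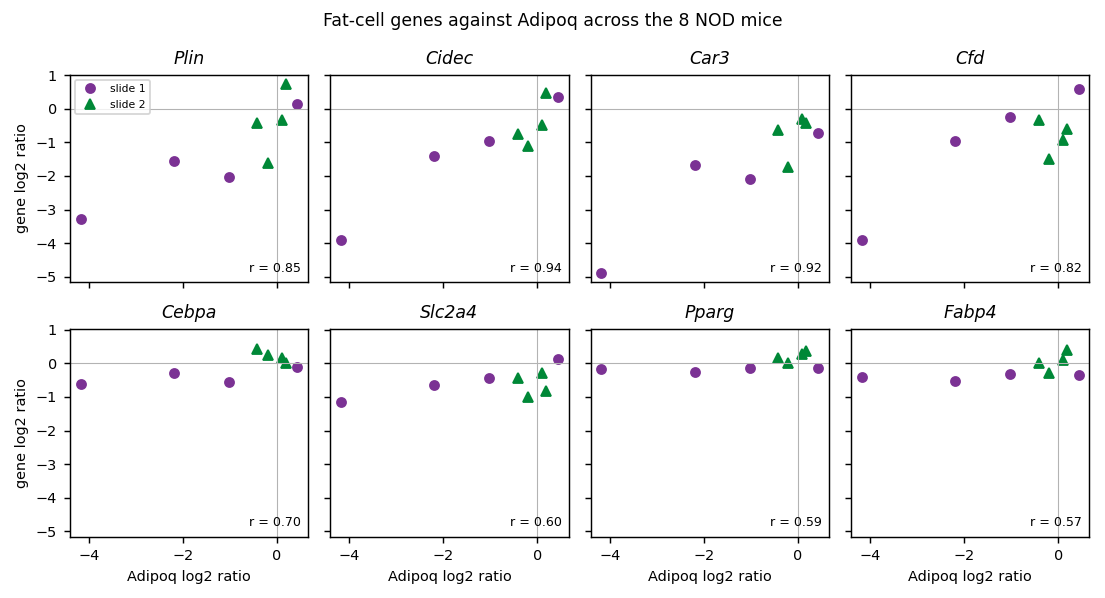
Log2 ratio of 8 fat-cell genes (vertical axes) against that of *Adipoq* (horizontal axes) in each NOD mouse, circles for slide 1 and triangles for slide 2, with Pearson's r. *Plin*, *Cidec* and *Car3* rise along with *Adipoq* from mouse 4 at the lower left, while *Pparg* (r = 0.59) and *Fabp4* (r = 0.57) lie nearly flat.

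The slides were compared with an exact permutation test of 4 mice against 4, whose smallest p is 0.0286. The slides did not overlap for 6 of the 35 tested members (17.1%), where 14.3% of all genes tested did not overlap. *Fabp4* had means of -0.40 on slide 1 and 0.05 on slide 2, *Pparg* of -0.18 and 0.20, *Cebpa* of -0.39 and 0.20, *Lipe* of -0.69 and 0.02, and *Scd2* of -0.17 and 0.30. *Fasn* went the other way, from -0.00498 on slide 1 to -0.46 on slide 2. Each of the 6 had p = 0.0286 and an adjusted p of 0.171 over the 36 members (exact permutation), so none passed. *Adipoq* had means of -1.74 and -0.08 (p = 0.171, adjusted p = 0.617, exact permutation). Red spots had a median coefficient of variation (CV) per array of 16.1% to 24.8% on slide 1 and 38.2% to 63.5% on slide 2, and its part in these differences was not tested.

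Genes beyond the 36 were counted on lists of the same pathways. Over all genes tested, 1.29% were called lower and 0.389% higher. With normexp and loess, 1 gene of these pathway lists was called lower and 5 higher, where the main setting called 7 and 0. Of 16 further adipocyte genes, 3 were called lower and 0 higher, with a median of -0.34. *Rbp4*, the retinol carrier of fat and liver, was among them at -1.16 ± 0.41 (SD, n = 8, adjusted p = 0.00218), lower in 8 of 8 mice and well above background in red on all 8 arrays. *Orm1*, an acute phase protein of fat and liver, and *Sncg*, a synuclein of fat and nerve, were called at -1.25 and -1.29 with red signal well above background on 0 arrays. With normexp the means of *Rbp4*, *Orm1* and *Sncg* were -0.86, -0.080 and -0.064. *Acsl1*, which activates fatty acids and had the brightest probe of the list, had a mean of -0.04. Of 8 brown fat genes, 2 were called lower, *Prdm16*, a brown fat regulator, at -1.47 and *Cox8b*, a respiratory chain subunit of brown fat and muscle, at -1.75, both with red signal well above background on 0 arrays, and the list's median was 0.00. With normexp *Prdm16* was at -0.051 and *Cox8b* at -0.35. *Elovl3* and *Zic1* had ratios of 0 in all 8 mice. Of 10 preadipocyte genes 0 were called, with a median of -0.31.

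Of 18 genes of cholesterol synthesis 0 were called, with a median of -0.07, and the brightest, *Srebf2*, the regulator of the pathway, had a mean of -0.03. Of 17 tested genes of fatty acid oxidation 2 were called lower, *Pdk4*, which spares glucose in fasting, at -1.90 and *Angptl4*, an inhibitor of lipoprotein lipase, at -1.51, and the list's median was -0.12. Red signal was well above background on 0 arrays for *Pdk4* and on 6 for *Angptl4*, and with normexp their means were -0.23 and -0.44. Of 9 genes of insulin signaling 0 were called, with a median of -0.00332. Of 6 exocrine lipase genes 0 were called, with a median of 0.29, and *Pnliprp1*, a pancreatic lipase-related protein, had a mean of 0.57 (adjusted p = 0.00132), under 2-fold.

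Marker genes of other cells were read beside these values. Over all genes tested, 1.29% were called lower and 0.389% higher. With normexp and loess, 0 marker genes were called lower and 3 higher, where the main setting called 3 and 0. Of 8 skeletal muscle genes, which could accompany *Car3* and *Slc2a4*, 0 reached a red signal well above background on 4 or more arrays, and 0 of 7 tested were called. Of 6 liver genes, 3 (*Apoa1*, *Apoa2* and *Fgb*) were called lower, with a median of -1.12 over the list, and the medians per mouse lay between -1.43 and -0.78, with -1.26 in mouse 4. The summed red signal of the liver list was 2510 to 4466 over the arrays, and the summed green signal 4721 to 6423. Red signal was well above background on 4 or more arrays for 2 of 6 genes and on 0 arrays for *Apoa1*, *Apoa2*, *Apoc3* and *Fgb*. With normexp the means of *Apoa1*, *Apoa2* and *Fgb* were -0.087, -0.11 and -0.71. The part of liver transcripts in the values of *Rbp4*, *Orm1* or *Car3* was not tested.

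Of 7 endothelial genes, 0 were called, with a median of -0.35, a summed red signal of 2945 to 5290 and a summed green signal of 3202 to 5261. Of 7 macrophage genes, 0 were called, with a median of 0.06, a summed red signal of 13510 to 35424 and a summed green signal of 16773 to 25793. Of 6 mesothelial genes, which line the surface of the pancreas and its fat, 0 were called, with a median of -0.36. The mesothelial median was -0.47 in mouse 4 and -0.63 to 0.14 over the 8 mice, and *Wt1*, *Upk1b*, *Upk3b* and *Muc16* were not well above background in red on any array. Of these *Upk3b* was lowest in mouse 4, at -2.01. Of 6 fibroblast genes, 0 were called, with a median of -0.24, and of 7 acinar genes 0, with a median of 0.05 and 0.00 in mouse 4. Of 6 islet genes, 0 were called, with a median of -0.65, and their median per mouse was -2.07 in mouse 1, -1.39 in mouse 2 and 0.00 in mouse 4. Of 7 T-cell genes, 0 were called, with a median of 0.61, and their median in mouse 4, 1.06, was the highest of the 8 mice. The part of these cells in the low fat-cell values of mouse 4 was not tested.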

How the data were processed

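Pancreas RNA of 8 NOD mice was compared with one pool of 8 NOD.B10 mice on 8 arrays, which form 1 group. The numbers 1 to 8 name mice. Values were extracted by the authors with Agilent Feature Extraction, version 10.7.3.1, and probe positions in the files are on mm8 (none is printed). The deposited files hold a log10 ratio of red over green per spot. The deposited intensity values include mean, background-subtracted and processed signals, the last after detrending and dye normalization, with flags for spots above background and for stand-in values. Where both dyes of a spot had stand-in values the deposited ratio is 0. A ratio of 0 also occurs without a stand-in value in green, as for *Aqp7* in 5 of 8 mice.

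From these, log10 ratios were converted to log2 and the spots of a probe averaged. With limma 3.58.1 in R 4.3.3, the package data.table (1.17.8) reading the files, a one-sample moderated test was run on 28105 probes. The brightest tested probe, by mean log2 signal over both dyes, stands for a gene. Single genes were also tested over all 256 sign flips (exact permutation). Other tests and plots were made in Python 3.11.15, with scipy 1.17.1, numpy 2.4.6, matplotlib 3.10.9 and pandas 2.3.3.

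Of the spots on an array, 21.6% to 35.3% were well above background in red and 57.6% to 60.7% in green. The grid of 3 arrays, all on slide 2, was not rated as good. The number of arrays limits the precision. Tested on simulated data, with 200 of 28105 probes changed 3-fold, the test recovered 139 and made 2 false calls.

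All 36 members are named. Of the other lists, genes called in either direction and at most the 2 brightest were named. One further gene of these lists is not reported here. *Apoc3*, *Wt1*, *Upk1b*, *Upk3b*, *Muc16*, *Elovl3*, *Zic1* and *S3-12* were named after their values were seen. The members and lists were chosen with earlier results of these data known. *Adig*, *Pck1*, *Irs2*, *Alb*, *Serpina1a*, *Lrrn4* and *Amy2*, on the lists, were not analysed here. Whether the 8 mice came from separate litters is not given in the sources used here.

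As alternatives, the statistic was left unmoderated, all probes with a symbol were tested, the filter was set on red spots well above background, irregular spots were dropped, and slide was a covariate. Other scalings were background-subtracted signals centered on each array's median, normexp (offset 50) followed by loess, and the ratio of processed signals. The p limit was set to 0.05, the fold limit to 1.5, other probes were used, and mice were left out in turn. The linear mean over mice, the SD without mouse 4 and the relation to *Adipoq* over 9558 genes were added after seeing the data.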

Additional observations from a re-analysis of the deposited data

Results flagged for a closer look

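Among the 35 members with any spread, 7 values stood apart from the other 7 mice by Dixon's test at its 95% level, which chance passes in about 1 of 20 groups. In mouse 4, *Cfd* was at -3.89, *Cidec* at -3.91 with the next at -1.40, and *Car3* at -4.87 with the next at -2.08. In mouse 8, *Acly* was at -2.16 with the next at -0.73, and *Acaca* at -2.07 with the next at -0.37. *Lep* in mouse 5, at 0.15, and *Adrb3* in mouse 3, at 1.55, had red signal well above background on 0 arrays. The cause of these values was not tested.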

How the results depend on the processing

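No paired analysis was possible because the 8 arrays form a single group. The plain statistic, testing all probes with a symbol, a filter on red spots well above background, removal of irregular spots, slide as a covariate, the looser p of 0.05, the looser fold of 1.5, any probe of a gene and normexp with loess left 0 members called. Leaving out each mouse gave 0 to 1 called lower, the 1 being *Agpat2* without mouse 8. Median-centered signals, which shift the median of all genes by 0.10, gave 5 called lower (*Cidec*, *Lipe*, *Pnpla2*, *Scd1* and *Agpat2*) and 3 called higher (*Lep*, *Aqp7* and *Ucp1*, at background in red), and the ratio of processed signals gave 2 called higher (*Aqp7* and *Ucp1*). The cause was not tested.

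Of all genes, 72 were called higher and 239 lower, so that 23.2% of calls were higher. Median-centered signals gave 3380 and 936 (78.3% higher), the ratio of processed signals 2015 and 403 (83.3%), and normexp with loess 23 lower (70.5% higher). The plain statistic gave 146 lower, the filter on red spots well above background 79 higher and 33 lower (70.5% higher), an adjusted p of 0.05 gave 123 and 445, a fold of 1.5 gave 263 and 512, and leaving out each mouse 42 to 62 higher and 113 to 162 lower. Of the pathway lists, with 7 genes called lower and 0 higher, median-centered signals called 11 and 6, normexp 1 and 5, and processed signals 2 higher. Of the marker lists, with 3 lower and 0 higher, these settings called 6 and 7, 0 and 3, and 5 higher. The median over fat-cell genes was -0.91 where red signal had to be well above background, -0.058 with normexp, and -0.69 to -0.44 with each mouse left out. The median over lipogenic genes was -0.42 with median-centered signals, -0.070 with normexp and -0.26 to -0.19 with each mouse left out. The relation to *Adipoq* passed for 3 of 8 genes, for 5 as deviations from slide means (by approximate p-values), for 3 with median-centered signals (*Slc2a4* passed there and *Car3* did not), for 0 without mice 1 and 4, and for 0 when adjusted over all genes. These counts are by Pearson's r. By Spearman's rho 2 genes passed, and 0 in each of the first 3 of these alternatives.

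The mean log2 ratio turned its sign in these cases. With median-centered signals *Lep* was at 1.15, *Cidea* 0.14, *Pparg* -0.14, *Pnpla3* 0.55, *Scd2* -0.55, *Elovl6* 0.15, *Elovl5* 0.23 and *Srebf1* -0.11. With normexp *Cidea* was at 0.024, *Pparg* -0.058, *Aqp7* -0.028, *Scd2* -0.49, *Acaca* 0.00209, *Elovl6* 0.069, *Elovl5* 0.13, *Srebf1* -0.038, *Thrsp* 0.00744, *Me1* 0.064 and *Lpin1* 0.058. The ratio of processed signals put *Lep* at 0.25. The linear mean put *Dgat2* at 0.070 and *Thrsp* at 0.00105. Other probes gave -0.00592 for *Aqp7*, 0.015 for *Lpl*, 0.038 for *Fasn*, 0.12 for *Acaca*, 0.00637 for *Elovl5*, -0.87 for *Gpd1* and 0.00892 for *Mgll*. With each mouse left out *Pparg* ranged from -0.044 to 0.048, *Dgat2* from -0.30 to 0.086, *Elovl5* from -0.094 to 0.015 and *Thrsp* from -0.24 to 0.00313. *Adipoq*, *Plin*, *Cfd*, *Cidec* and *Car3* kept a mean below 0 in every alternative listed here, but with normexp *Adipoq* was at -0.31, *Plin* -0.13, *Cfd* -0.83, *Cidec* -0.53 and *Car3* -0.69.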

Other observations

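Over 9558 other genes with red signal well above background on 4 or more arrays, ranked by Pearson's r with *Adipoq* across the 8 mice, *Cidec* was the 2nd, *Car3* the 4th, *Dgat2* the 13th, *Plin* the 20th and *Cfd* the 38th. For *Dgat2*, r was 0.88 (exact permutation p = 0.00337) and rho 0.88 (p = 0.00724). This is by its brightest probe alone. The next brightest *Dgat2* probe was highest in mouse 4, at 0.31, and lowest in mouse 7, at -0.73. Adjusted over all 9558 genes, 0 passed, and the lowest adjusted p was 0.874 (exact permutation), so the ranks are a description. Without mice 1 and 4, r of *Dgat2* was 0.83. The gene ranked first, *D6Wsu116e*, had r = 0.96, and 0.54 without those mice. *Thrsp* ranked 212th, *Pparg* 512th, *Fabp4* 597th, *Lpl* 3478th and *Fasn* 6843rd.

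*S3-12*, a droplet coat protein of white fat now called perilipin 4, was also lowest in mouse 4, at -2.21, with a mean of -0.94 ± 0.59 (SD, n = 8, adjusted p = 0.0167) and lower in 8 of 8 mice. Its red signal was well above background on 3 of 8 arrays, and with normexp its mean was -0.50. It was picked out after its values were seen.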
